A study of Rattus norvegicus with 6 samples.

Results

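Matrix metalloproteinases, ADAMTS proteases and their tissue inhibitors were examined in rat myocardium after ischemia/reperfusion (I/R). The 10 genes were chosen by symbol and were Mmp2, Mmp3, Mmp8, Mmp9, Mmp14, Timp1, Timp2, Timp3, Adamts1 and Adamts4. Of these, 9 were matched among the 28293 genes of the expression table, and Timp2 was not analysed here. The table held myocardial tissue of 6 male wild-type rats, 3 in the sham group and 3 in the I/R group. In I/R rats a ligature around the left anterior descending branch was held for 30 min and released, and hearts were collected 6 h later. The sham labels carry these times as well, and the strain and age of these rats are not given in the labels. The protocol given for all 6 samples includes anesthesia, ventilation and a left thoracotomy.

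Matrix metalloproteinases (Mmp genes) are zinc-dependent enzymes that are made as inactive precursors and cut collagens, laminins, gelatins and other matrix proteins once activated. ADAMTS enzymes are secreted relatives with thrombospondin repeats, several of which cut proteoglycans such as versican and aggrecan. Tissue inhibitors of metalloproteinases (Timp genes) bind the active site of these enzymes. In the injured heart the balance of proteases and inhibitors is known for its part in matrix turnover, infarct healing and ventricular dilatation.

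Transcripts of 5 genes were higher in the I/R group, namely Adamts4, Mmp8, Adamts1, Timp1 and Timp3. The call of Timp3 depended on the scaling of the values. The mean level rose 8.53-fold for Adamts4 (18.9-fold without sham 2), 9.35-fold for Mmp8, 4.10-fold for Timp1, 3.93-fold for Adamts1 and 2.39-fold for Timp3. Mmp2 and Mmp14, the most abundant Mmp transcripts of the set, did not pass the test. Mmp9 and Mmp3 lay under the minimum level for the main test, and Mmp9 is described from the fragments behind its values. None of the genes was called lower.

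Levels are given as fragments scaled to transcript length and library size (FPKM), and fold changes as log2 differences of FPKM + 0.1 with limma's standard error (SE). A gene was called when its Benjamini-Hochberg adjusted p was under 0.05 over the 10942 genes whose FPKM averaged 0.5 or more. Of the 7 family genes that passed this minimum, 5 were called higher and 0 lower. Among all genes tested, 2790 were called higher, which is 25.5%, and 805 were called lower, which is 7.36%. Mmp8 and Adamts4 passed the minimum only through their I/R values, so their place among the tested genes was itself tied to the difference. The median log2 fold change was 1.97 for the 7 family genes, with Mmp8 and Adamts4 among them, and 0.29 for all genes tested. This contrast is therefore also tied in part to the minimum. Of the others, Adamts1, Timp1 and Timp3 were called higher (log2 fold change 2.06, 1.97 and 1.28), and Mmp2 (0.44) and Mmp14 (0.04) were not called.

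The split of calls over all genes depended on the scaling. The 13 mitochondrially encoded mRNAs held 80.1% to 86.2% of the summed FPKM in the sham group and 61.8% to 71.5% in the I/R group. When the values were rescaled without these mRNAs, 791 genes were called higher and 3010 lower, and the median of all genes was -0.48. Quantile normalization gave 1441 higher and 1559 lower, with a median of -0.02. The summed FPKM of 7 cardiomyocyte markers was 3313 to 11177 in the sham group and 21330 to 30689 in the I/R group. Of the 7, 5 were called higher and 0 lower, beside 25.5% and 7.36% of all genes tested. Cardiac muscle RNA was thus present in every sample but at unequal levels. Sham 1 stood apart from the other sham rats in several contractile genes, with 667.0 FPKM of Myh7 against 73.2 and 94.0. The libraries held an inferred 36848184 to 39480833 fragments in the I/R group and 42221073 to 49848438 in the sham group. Fragments of single genes given below are the smallest whole numbers that fit the FPKM values.

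**Figure D1:**
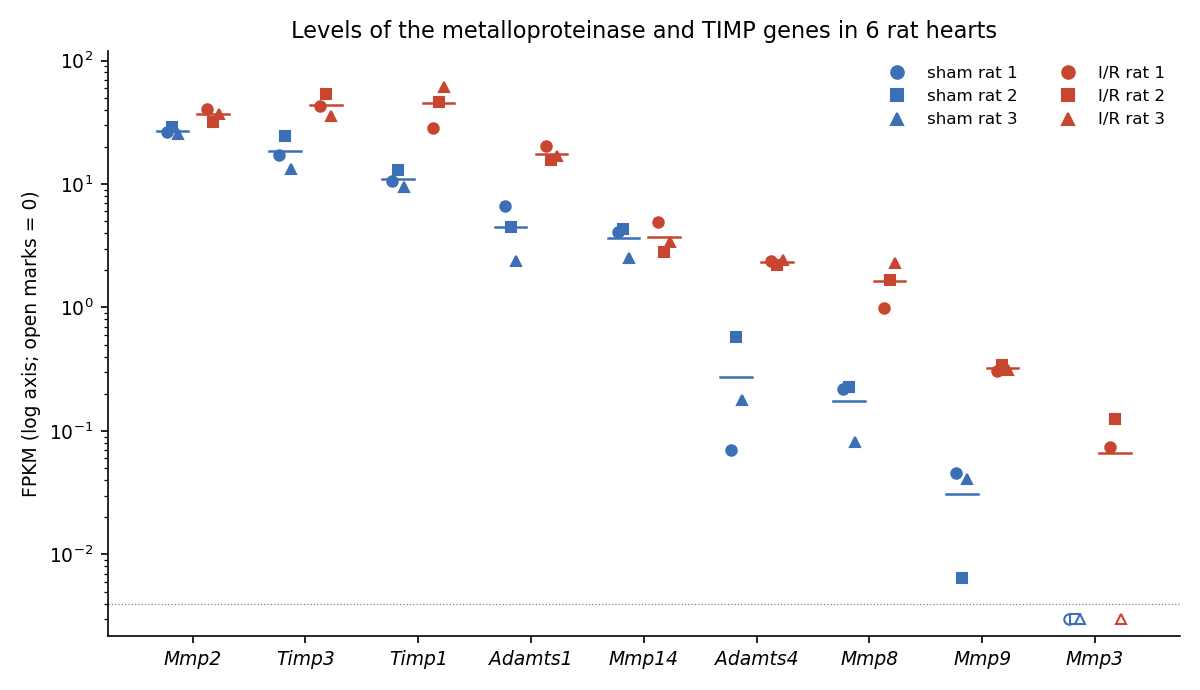
FPKM of the 9 genes in each of the 6 rats on a log axis, ordered by their sham mean, with sham rats in blue, I/R rats in red, a horizontal bar at each group mean and open marks for values of 0. The I/R points lie above all sham points for each gene except Mmp14, whose groups overlap, and Mmp3, which is at 0 in I/R 3. Of the genes past the minimum level, which Mmp9 and Mmp3 did not reach, 37.2% lie apart in that direction.

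In the sham group the levels, which are already per length, ran from Mmp2 with a mean of 26.9 FPKM through Timp3 (18.3), Timp1 (11.1), Adamts1 (4.48), Mmp14 (3.64), Adamts4 (0.275) and Mmp8 (0.176) to Mmp9 (0.0311) and Mmp3 at 0. The ranges of Adamts1 and Mmp14, and those of Adamts4 and Mmp8, overlapped, so neither pair was ordered beyond its spread. In the I/R group Timp1 (45.4), Timp3 (43.9) and Mmp2 (36.6) stood at the top with overlapping ranges. Adamts1 (17.6) and Mmp14 (3.74) followed and were each separate from their neighbours. Adamts4 (2.34) and Mmp8 (1.65) overlapped again, above Mmp9 (0.322) and Mmp3 (0.0663). Mmp2 was thus far above Mmp9, the other gelatinase, in either group.

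The gene starts of the 5 called members, with that of Mmp3, are shown here because members that move together may be compared by the letters next to their starts. Entries were found in RefSeq's promoter table (build GRCr8) for 7 of the 10 genes, all but Mmp2, Mmp9 and Mmp14. The 150 bases before the annotated start are printed 5′ to 3′ on the gene's strand, and capitals mark matches on either strand to the letters TGAGTCA (the AP-1 site), TGAGTAA (a variant of it), TATAAA (the TATA box) and GGGCGG (the GC box).
Timp1, chrX:3771123-3771272, minus strand: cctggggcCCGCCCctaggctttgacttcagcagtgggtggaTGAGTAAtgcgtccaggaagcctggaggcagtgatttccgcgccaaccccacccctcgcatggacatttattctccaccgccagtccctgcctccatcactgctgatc
Timp3, chr7:19459559-19459708, minus strand: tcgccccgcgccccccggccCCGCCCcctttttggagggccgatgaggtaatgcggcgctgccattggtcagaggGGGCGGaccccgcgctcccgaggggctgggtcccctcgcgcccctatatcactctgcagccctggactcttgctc
Adamts1, chr11:38427385-38427534, minus strand: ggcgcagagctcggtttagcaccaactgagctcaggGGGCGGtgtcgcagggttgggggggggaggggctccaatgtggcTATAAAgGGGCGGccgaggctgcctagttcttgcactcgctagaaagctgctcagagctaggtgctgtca
Adamts4, chr13:86202861-86203010, plus strand: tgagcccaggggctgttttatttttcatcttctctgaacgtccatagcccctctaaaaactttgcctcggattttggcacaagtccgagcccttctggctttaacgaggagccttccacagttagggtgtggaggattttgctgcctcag
Mmp8, chr8:13008740-13008889, plus strand: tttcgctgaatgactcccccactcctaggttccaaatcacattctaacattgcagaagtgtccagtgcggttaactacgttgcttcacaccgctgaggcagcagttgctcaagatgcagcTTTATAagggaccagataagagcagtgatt
Mmp3, chr8:12925131-12925280, plus strand: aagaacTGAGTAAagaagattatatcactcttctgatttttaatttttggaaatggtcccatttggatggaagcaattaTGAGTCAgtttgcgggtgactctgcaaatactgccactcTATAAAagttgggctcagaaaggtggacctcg
The AP-1 letters TGAGTCA were found in Mmp3 alone among these 6, starting 71 bases before the start, and the variant TGAGTAA in Mmp3 (144 bases before) and Timp1 (108 bases before). In all 33469 promoters of the table, windows of the same length held TGAGTCA in 2.378% and TGAGTAA in 1.434%. TATAAA was found in Mmp3, 32 bases before the start, in Adamts1, 70 bases before, and on the opposite strand in Mmp8, 30 bases before, against 8.001% of all promoters. GGGCGG occurred in Timp1, Timp3 and Adamts1, once in Timp1 and at 2 places in each of the others, against 26.02% of all promoters. The window of Timp1 belongs to 1 annotated transcript and lies inside the span of the gene. Adamts4 held none of these letters in this window. No motif of the 4 was in all 5 windows of the genes called higher, and a match in letters is a description of the window only.

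Mmp8 encodes neutrophil collagenase, which cuts fibrillar collagen. Its level was 0.221, 0.226 and 0.0818 FPKM in the 3 sham rats and 0.984, 1.68 and 2.28 FPKM in the 3 I/R rats. The groups did not overlap, and the lowest I/R rat was several times above the highest sham rat. Mmp8 was called higher with a log2 fold change of 2.64 ± 0.42 (SE, 3 rats per group, limma adjusted p = 0.0035). These levels rest on few fragments, 19, 23 and 8 in the sham libraries and 74, 135 and 173 in the I/R libraries.

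Mmp9 encodes gelatinase B, which is stored in neutrophil granules and also made by macrophages and other cells. It was listed at 0.0461, 0.00651 and 0.0406 FPKM in the sham group and at 0.308, 0.345 and 0.314 FPKM in the I/R group. The 3 I/R values lay close together, and all were above every sham value. The inferred fragments were 6, 1 and 6 against 35, 42 and 36. With no minimum level, limma gave a log2 fold change of 1.70 ± 0.23 (SE) and an adjusted p of 0.016, where 11.4% of 19226 genes were called higher. In a fit of the fragments themselves by limma's voom method, which was added after the data were seen and called 17.8% of 16241 genes higher, the log2 fold change was 3.59 ± 0.83 (SE, adjusted p = 0.0063). Totals without the mitochondrial genes lowered it to 2.78 ± 0.85 (SE, voom adjusted p = 0.024).

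Mmp3 encodes stromelysin-1, which cuts proteoglycans, laminin and fibronectin and activates other metalloproteinases. It was listed at 0 FPKM in all sham rats and in I/R 3, and at 0.0743 and 0.125 FPKM in I/R 1 and I/R 2, from 5 and 9 fragments. A count of 0 allows up to 3 fragments, which bounds counting error only, so these libraries show Mmp3 in 2 of 3 I/R rats and give no dependable fold. The voom fit did not call it (adjusted p = 0.17), and the two-sided exact permutation test gave p = 0.4.

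**Figure D2:**
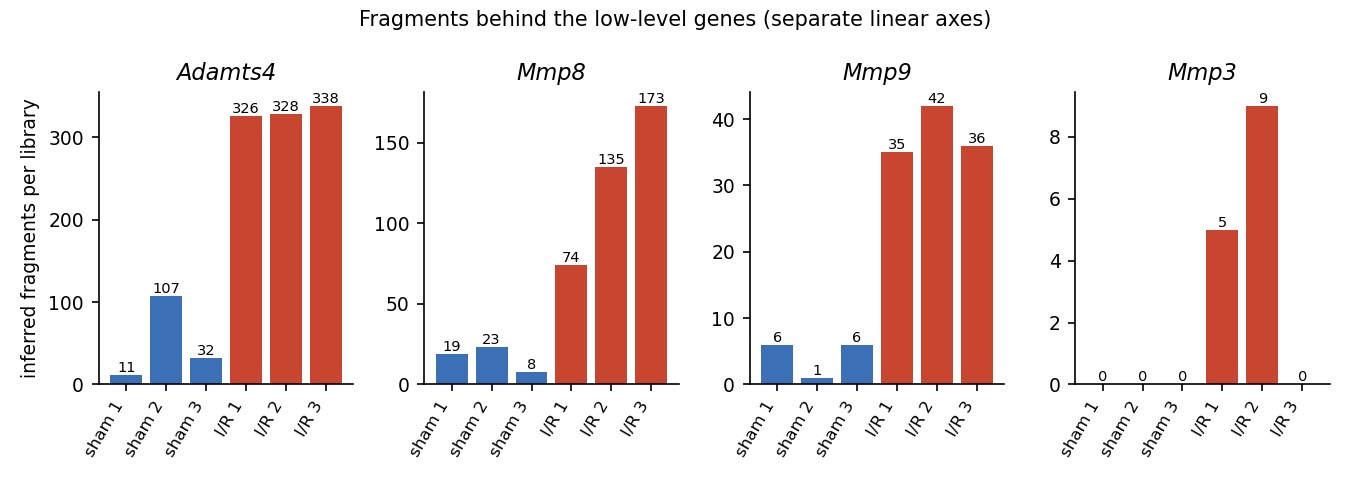
Bars give the inferred number of fragments of Adamts4, Mmp8, Mmp9 and Mmp3 in each library, sham in blue and I/R in red, each panel on its own linear axis from 0. Mmp9 had 1 to 6 fragments in the sham libraries and 35 to 42 in the I/R libraries, whereas Mmp3 had 5 and 9 fragments in I/R 1 and I/R 2 and none elsewhere.

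Neutrophil markers were read beside Mmp8 and Mmp9. Of 10 markers, 3 passed the minimum level, and 2 of these were called higher and 0 lower, beside 25.5% and 7.36% of all genes tested. Those called were the calprotectin genes S100a8 (log2 fold change 1.60 ± 0.40, SE, limma adjusted p = 0.014) and S100a9 (1.89 ± 0.36, SE, limma adjusted p = 0.0057). Rescaling without the mitochondrial mRNAs ended the call of S100a8 (0.82, limma adjusted p = 0.11) and kept that of S100a9 (1.12, limma adjusted p = 0.028), and quantile normalization ended both (0.965 and 1.202, limma adjusted p = 0.15 and 0.060). Csf3r, the receptor for granulocyte colony-stimulating factor, was tested and not called (1.03, limma adjusted p = 0.15), and the other 7 lay under the minimum. Csf3r passed the minimum only through its I/R values, so its place among the tested genes was tied to the difference. The summed FPKM of the 10, most of it from S100a8 and S100a9, was 12.9 to 17.5 in the sham group and 27.8 to 81.5 in the I/R group. S100a8 was at 11.1, 26.9 and 37.2 FPKM in I/R 1 to I/R 3, where Mmp8 was at 0.984, 1.68 and 2.28 FPKM, while Mmp9 differed little among the same rats. Timp1, at 28.4, 46.1 and 61.5 FPKM, ran in the same order, so this order was not particular to neutrophil genes. Among the 7 under the minimum, Cxcr2 was at 0.0381 to 0.212 FPKM in the sham group and 0.242 to 0.464 FPKM in the I/R group. Fpr1 and Camp also did not overlap, at 1, 1 and 2 against 7, 7 and 6 fragments and at 0 against 1, 14 and 1. The granule genes Mpo and Ltf were listed at 0 in all 6 rats, and Elane at 0 in the sham group. Elane and Ngp overlapped. Over the 10 markers, 6 lay apart with I/R higher and 0 with I/R lower. The shares of 37.2% and 13% cover only genes past the minimum, so they are no like base for a list with 7 under it. A count of 0 allows up to 3 fragments, so Camp, with 1 fragment in I/R 1 and I/R 3, was not apart beyond counting error. All 8 monocyte and macrophage markers were tested, with 1 called higher (Cd14) and 3 lower (Cd163, Mrc1 and Ccr2), beside the same 25.5% and 7.36%. Cd14 lost its call without the mitochondrial mRNAs (limma adjusted p = 0.051). Ccr2 passed the minimum only through its sham values, so its place among the tested genes was tied to the difference. The part of these cells in the change of Mmp8 and Mmp9 was not tested, and in tissue RNA fewer cells of a type and less RNA per cell cannot be told apart.

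Mmp2 encodes gelatinase A, which cuts denatured collagen and basement membrane collagen and is made largely by fibroblasts. It was at 26.3, 29.2 and 25.2 FPKM in the sham rats and at 40.9, 31.7 and 37.2 FPKM in the I/R rats. The groups did not overlap, which held in that direction for 37.2% of all genes tested, and the gap between I/R 2 and sham 2 was small. The log2 fold change was 0.44 (95% interval -0.05 to 0.93, limma adjusted p = 0.15). Its sign turned when the values were rescaled without the mitochondrial mRNAs (-0.35) or quantile normalized (-0.47), again without a call.

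Mmp14 encodes a membrane-bound metalloproteinase that activates the Mmp2 precursor at the cell surface, with Timp2 as adaptor. Its level was 4.10, 4.28 and 2.53 FPKM in the sham group and 4.96, 2.83 and 3.42 FPKM in the I/R group. The groups overlapped throughout. The log2 fold change was 0.04 (95% interval -0.61 to 0.68, limma adjusted p = 0.93), which leaves room for a moderate change in either direction. Rescaling without the mitochondrial mRNAs gave -0.73 and quantile normalization -0.28, neither of them called.

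Timp1 encodes a soluble inhibitor of most metalloproteinases, including Mmp9, and is inducible in many cell types. It was at 10.6, 13.1 and 9.51 FPKM in the sham rats and at 28.4, 46.1 and 61.5 FPKM in the I/R rats. Every I/R rat was above every sham rat, and the I/R values were widely spread. Timp1 rose by a log2 fold change of 1.97 ± 0.30 (SE, 3 rats per group, limma adjusted p = 0.0033), from 389 to 570 fragments in the sham libraries and 914 to 1998 in the I/R libraries. Timp1 kept its call under each of 17 other settings (other pseudocounts, minimum levels, scalings and left-out rats), with the smallest change, 1.15, after quantile normalization.

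Timp3 encodes an inhibitor that binds to the extracellular matrix and also blocks ADAM and ADAMTS proteases. It was at 17.2, 24.5 and 13.3 FPKM in the sham rats and at 42.7, 53.8 and 35.2 FPKM in the I/R rats. The groups did not overlap, and the log2 fold change was 1.28 ± 0.28 (SE, limma adjusted p = 0.0096). This call was the one among the 5 that depended on the scaling. The log2 fold change fell to 0.50 without the mitochondrial mRNAs (limma adjusted p = 0.19) and to 0.40 after quantile normalization (limma adjusted p = 0.28).

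In RefSeq, Timp1 and Timp3 lie within the spans of the synapsin genes Syn1 and Syn3, and the strand setting of the counting is not given in the sources used here. Timp4, the inhibitor typical of heart muscle, was on a list of other family genes. It was at 20.9, 32.8 and 12.3 FPKM in the sham rats and at 14.1, 16.7 and 15.2 FPKM in the I/R rats. The groups overlapped and the main test made no call (log2 fold change -0.41 ± 0.33, SE, limma adjusted p = 0.37). After rescaling without the mitochondrial mRNAs it was called lower (-1.19, limma adjusted p = 0.013), as after quantile normalization (-1.18, limma adjusted p = 0.038).

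Shares within the 3 inhibitors do not depend on a single scaling factor per library, and were computed after the values were seen, so they carry no test. Timp4 made up 43.0%, 46.6% and 35.0% of the summed FPKM of Timp1, Timp3 and Timp4 in the sham rats and 16.5%, 14.3% and 13.6% in the I/R rats. Timp1 made up 21.7%, 18.6% and 27.1% in the sham rats and 33.4%, 39.6% and 55.0% in the I/R rats. Both shares were apart between the groups, in opposite directions, also after quantile normalization, where Timp4 made up 35.2% to 48.0% and 14.6% to 17.5% and Timp1 17.1% to 26.1% and 33.1% to 53.7%. Timp3 made up 34.8% to 37.9% in the sham group and 31.5% to 50.1% in the I/R group, so its share overlapped. The sum of the 3 was 35.1 to 70.4 FPKM in the sham group and 85.2 to 116.6 FPKM in the I/R group. Unlike the shares, this sum depended on the scaling, and the groups overlapped when it was rescaled without the mitochondrial mRNAs (53.9 to 105.3 and 60.8 to 96.9) or quantile normalized (51.6 to 94.8 and 55.1 to 90.7).

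**Figure D3:**
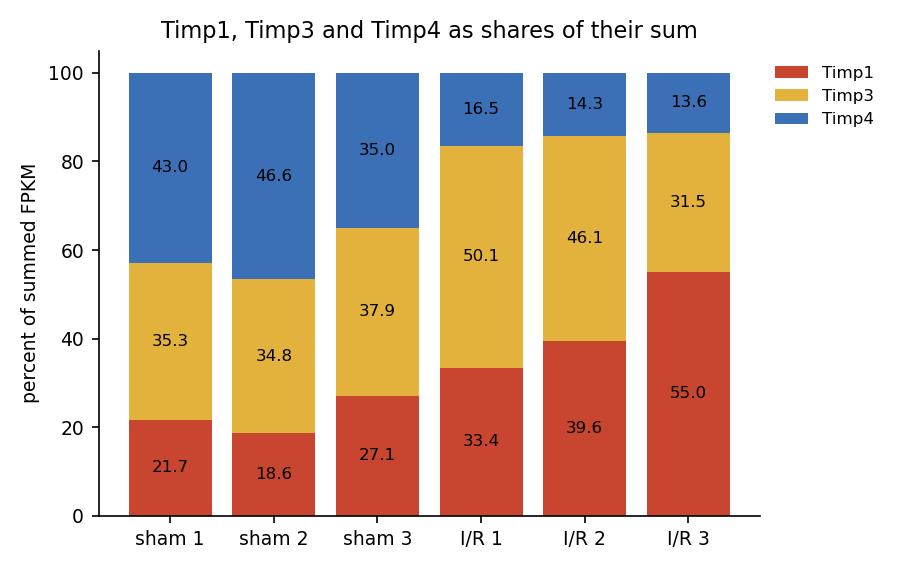
Stacked bars give Timp1, Timp3 and Timp4 as percent of their summed FPKM in each of the 6 rats. Timp4 holds 35.0% to 46.6% in the sham rats and 13.6% to 16.5% in the I/R rats, and Timp1 reaches 55.0% in I/R 3.

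Adamts1 encodes an inducible proteoglycanase that cuts versican. It was at 6.60, 4.46 and 2.39 FPKM in the sham rats and at 20.3, 15.7 and 16.9 FPKM in the I/R rats. The lowest I/R rat was above the highest sham rat by more than the whole spread of the sham group. Adamts1 rose by a log2 fold change of 2.06 ± 0.34 (SE, limma adjusted p = 0.0037), with 558 to 1357 fragments in the sham libraries and 3022 to 3642 in the I/R libraries. Sham 1, the rat with high contractile transcripts, had the highest sham value, and without it the log2 fold change was 2.39 (limma adjusted p = 0.0015).

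Adamts4 encodes aggrecanase-1, which cuts aggrecan and versican. It was at 0.0698, 0.575 and 0.179 FPKM in the sham rats and at 2.37, 2.23 and 2.43 FPKM in the I/R rats. The I/R rats were nearly alike, while the sham rats ranged widely at 11, 107 and 32 fragments. Its log2 fold change was 2.94 ± 0.46 (SE, limma adjusted p = 0.0035). Without sham 1, which had the lowest value, it was 2.49 (limma adjusted p = 0.0032). Without sham 2, the rat with 107 fragments, it was 3.49 (limma adjusted p = 0.0064), and the ratio of the mean levels went from 8.53 to 18.9. Without sham 1, Mmp8, Timp1 and Timp3 were also still called, at 2.77, 1.94 and 1.25.

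**Figure D4:**
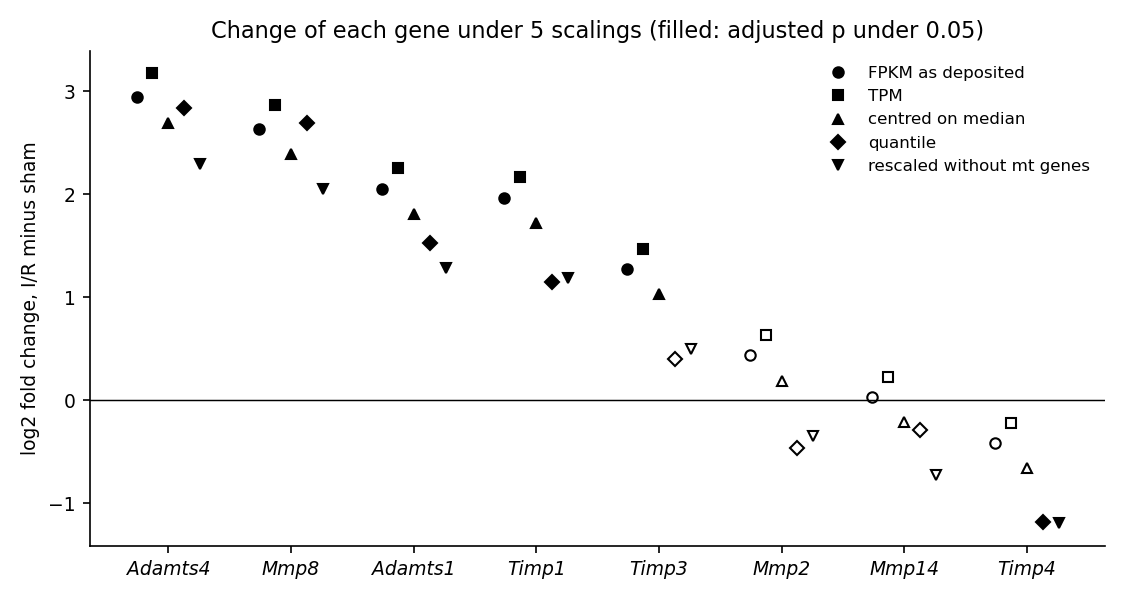
Log2 fold change (I/R minus sham) of 8 genes under 5 scalings of the same values, with filled marks where limma's adjusted p was under 0.05. Adamts4, Mmp8, Adamts1 and Timp1 are filled and above 0 under all 5, Timp3 is open under quantile normalization and under rescaling without mitochondrial (mt) genes, and Mmp2 and Mmp14 fall on both sides of 0.

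Ratios between genes of the same sample were compared for 12 planned pairs, of which 8 could be computed. None passed an adjusted p of 0.05, and 3 rats against 3 cannot give less than 0.1 in the two-sided exact permutation test. The ratio of Timp1 to Timp3 differed by 0.69 on the log2 scale (exact permutation p = 0.2, 0.27 after adjustment), with overlapping groups, and that of Mmp2 to Mmp14 by 0.40 with the same p. The ratio of Adamts1 to Timp3 was 0.78 higher in the I/R group and also overlapped. The ratio of Adamts4 to Timp3 was 1.67 higher and did not overlap (exact permutation p = 0.1, 0.27 after adjustment). Its size, like that of every ratio with Mmp3, Mmp8, Mmp9 or Adamts4, moved with the pseudocount, to 0.18 at a pseudocount of 1. The ratio of Mmp9 to Timp1 was -0.27 at a pseudocount of 0.1, -1.53 at 1 and 1.22 at 0.01, so these data give it no direction.

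The rest of the family was read from 3 lists with 45 further genes, of which 21 passed the minimum level, 4 were called higher, 2 lower and 15 not called. These shares lay near the 25.5% and 7.36% over all genes, and so mark nothing about these lists as a whole. Adamts9, a versican-cutting protease, was at 0.689, 1.35 and 0.508 FPKM in the sham rats and at 4.52, 7.39 and 3.65 FPKM in the I/R rats. Its log2 fold change was 2.52 ± 0.37 (SE, limma adjusted p = 0.0029), so the 3 proteases Adamts1, Adamts4 and Adamts9 were each called higher and kept the call under every such setting in which they were tested. Mmp23 rose from a mean of 2.49 to 5.22 FPKM (log2 fold change 1.03, limma adjusted p = 0.0073), and its call was lost when rescaled without the mitochondrial mRNAs. Mmp24, a membrane-type metalloproteinase, was called at 1.11 (limma adjusted p = 0.029) and lost the call in 7 of 16 settings. Adamts2, which removes the N-terminal propeptide of fibrillar procollagens, was called at 0.64 (limma adjusted p = 0.0445), and the call was absent in 11 of 17 settings, among them a turned sign (-0.13) without the mitochondrial mRNAs.

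Change in the other direction within the ADAMTS group came from Adamts6 and Adamts10, which are close relatives of each other. Adamts6 was at 1.15, 1.499 and 1.35 FPKM in the sham rats and at 0.281, 0.326 and 0.453 FPKM in the I/R rats (log2 fold change -1.67 ± 0.31, SE, limma adjusted p = 0.0053). Adamts10 was at 6.63, 15.4 and 9.86 FPKM in the sham rats and at 2.62, 3.78 and 4.10 FPKM in the I/R rats (-1.51 ± 0.32, SE, limma adjusted p = 0.0082). Neither overlapped, which held in that direction for 13% of all genes tested. Both stayed called lower under every setting in which they were tested. Adamts6 passed the minimum only through its sham values, so its place among the tested genes was itself tied to the difference. Of 17 further ADAMTS genes, 9 were tested, and of 10 ADAM genes 5 were tested with none called in the main test. Without the mitochondrial mRNAs, where the median of all genes was -0.48, 6 ADAM genes were tested, 0 called higher and 3 lower. Of all 11209 genes tested at that scaling, 791 were called higher and 3010 lower. After quantile normalization 5 ADAM genes were tested, 0 called higher and 1 lower, beside 1441 higher and 1559 lower of all 10942. These counts are too small to mark anything about the ADAM genes as a whole. The most abundant ADAM transcript was Adam15, with means of 15.5 and 20.1 FPKM (log2 fold change 0.40, limma adjusted p = 0.25).

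**Figure D5:**
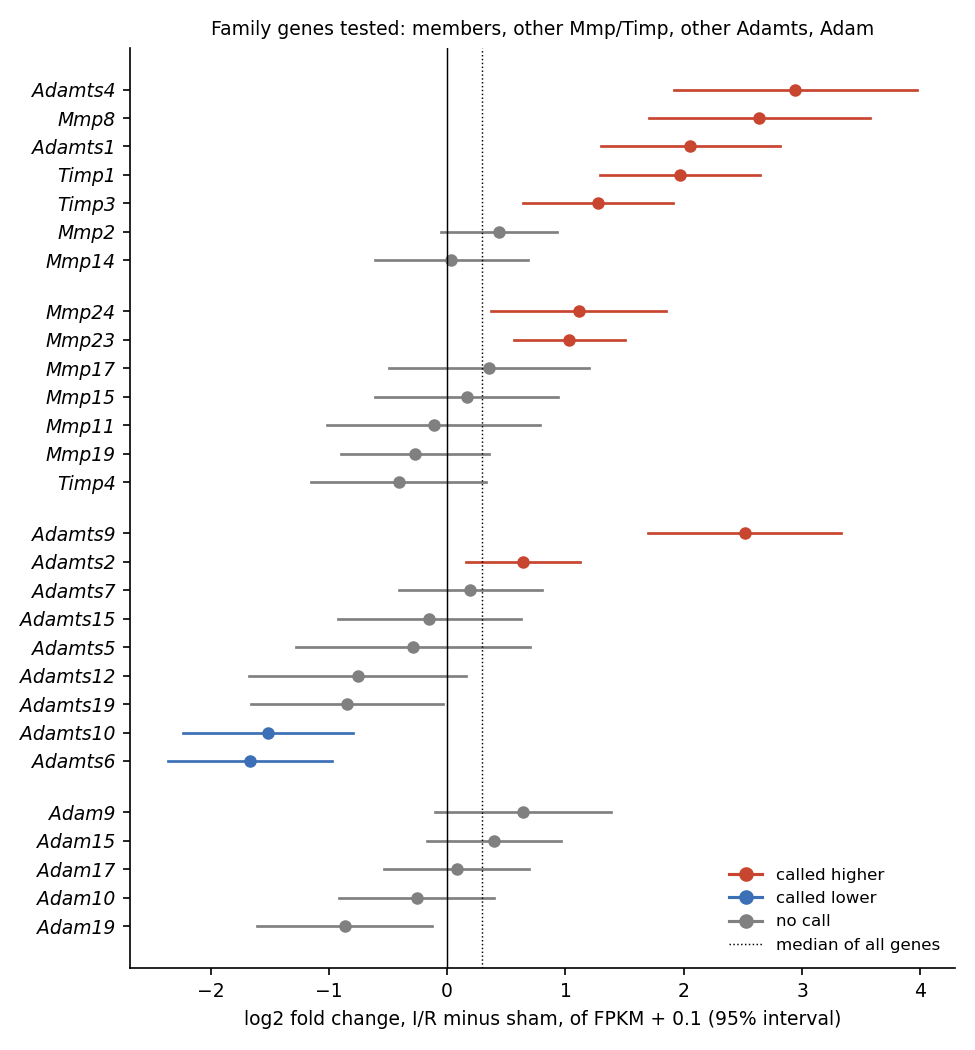
Points give the log2 fold change (I/R minus sham) and lines the 95% interval of each family gene tested, in blocks for the genes of the set, other Mmp and Timp genes, other Adamts genes and Adam genes. Red marks genes called higher, blue those called lower and grey those not called, and the dotted line is the median of all genes at 0.29.

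Genes that control these proteases outside the family were read from a list of 17, of which 13 were tested, 9 called higher and none lower, beside 25.5% and 7.36% of all genes. Without the mitochondrial mRNAs 5 of these 13 were called higher and 0 lower. Of all 11209 genes tested at that scaling, 791 were called higher and 3010 lower. Thbs1, a matricellular protein that binds several metalloproteinases, was at 0.936, 1.14 and 0.716 FPKM in the sham rats and at 34.8, 50.9 and 30.2 FPKM in the I/R rats (log2 fold change 5.22, limma adjusted p = 1.35e-05). This exceeded the log2 fold change of each family gene tested. Lcn2, whose protein binds Mmp9 (2.10), Tfpi2, a serine protease inhibitor (2.10), and Plaur, the urokinase receptor (1.93), were called at limma adjusted p-values of 0.0037, 0.0062 and 0.0043 and kept their calls under all these settings. Bsg, known as the inducer of metalloproteinases, Furin, a convertase that cuts protease precursors, Serpine2 and Thbs2 were also called higher, and each lost its call without the mitochondrial mRNAs. Reck, a membrane inhibitor of metalloproteinases, was not called (0.28, limma adjusted p = 0.40).

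Of 21 matrix substrates listed, 17 were tested, 3 called higher and none lower, near the 25.5% and 7.36% over all genes, with a median log2 fold change of 0.31 beside 0.29 for all genes. Vcan, the proteoglycan cut by Adamts1, Adamts4 and Adamts9, was at 0.349, 0.668 and 0.521 FPKM in the sham rats and at 1.17, 1.36 and 1.91 FPKM in the I/R rats (log2 fold change 1.38, limma adjusted p = 0.012). The laminin chain Lamc1 (1.05, limma adjusted p = 0.0091) and the collagen chain Col1a1 (0.91, limma adjusted p = 0.0135) were the others. All 3 lost their calls without the mitochondrial mRNAs, and Col1a1 turned to -0.12 after quantile normalization. Without the mitochondrial mRNAs 0 of 17 substrates were called higher and 3 lower. Of all 11209 genes tested at that scaling, 791 were called higher and 3010 lower, so 3 lower of 17 is no excess. The 3 most abundant substrates, Col3a1, Dcn and Col4a1, were not called in the main test. Dcn was called lower without the mitochondrial mRNAs (-0.77, limma adjusted p = 0.046) and after quantile normalization (-0.97, limma adjusted p = 0.039), and Col3a1 and Col4a1 were called in neither. Acan was at or below 0.0307 FPKM in every rat and was not tested.

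The genes whose log2 levels ran most alike to Timp1 over the 6 samples, among 9111 compared, were Rpl15, Pde4b and Sbno2 (Pearson r = 0.998, 0.996 and 0.993). For Mmp9 they were Tnfaip3, Ppie and Ap1ar (r = 0.995, 0.994 and 0.994). With 6 samples in 2 groups that share library and scaling, such values arise between any genes with a like difference between groups, and Rpl15 has close copies that can share reads. These values describe the pattern only.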

How the data were processed

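Total RNA of myocardial tissue from 3 sham and 3 I/R rats was sequenced after a stranded total RNA library preparation. The authors deposited FPKM values per gene and sample. STAR and HTSeq are named in the submitters' processing notes. Versions, genome build and annotation are not given in the sources used here. Rows with the same symbol were summed, leaving 28293 genes.

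Log2(FPKM + 0.1) was computed for the 10942 genes whose FPKM averaged 0.5 or more. The groups were fitted by lmFit and eBayes with trend (limma 3.58.1, R 4.3.3), with Benjamini-Hochberg adjustment and a threshold of 0.05. The family genes and lists were chosen with earlier results of these data known. All 10 family genes were to be named, with called genes of the other lists or otherwise those of highest mean, and the 3 genes most like Timp1 and Mmp9. A called gene of the regulator list is counted but not reported singly here. Fold changes on this scale understate the change of low genes. No source says how the samples were handled beyond 1 library per rat label, so p-values measure the spread between these samples, which may be partly technical.

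FPKM values are whole fragments divided by length and library total. Solving for both gave whole fragments (within 1e-04) for 8158 of 8158 mid-level genes, and for 19480 of the 19481 genes above 0. The solution is the smallest whole one, so a gene's true count may be a multiple of it. Inferred totals were 36848184 to 49848438 fragments. These fragments were fitted with voom in limma for genes with at least 10. The scripts were tested on simulated data.

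Samples of the same number deviated together from their group means (correlations 0.203, 0.117 and 0.118, each above 0.1), although sham 3 and I/R 2 also gave 0.120. With 3 samples per group such values cannot show a pairing, and no source pairs the rats. The replicate number, from the sample labels, was used as a block in an alternative fit only. Other alternatives were pseudocounts of 1 and 0.01, no minimum or a minimum of 5, TPM, scaling without mitochondrially encoded genes, centring on the median, quantile normalization, no trend, the highest row per symbol, and leaving out each rat. The inhibitors' sum and shares and each list's counts under other scalings, and mean ratios without each rat, were added after the data were seen. Single ratios were compared with an exact permutation test, two-sided. Promoters came from RefSeq (GRCr8) by symbol. The Ensembl identifiers could not be paired with that table.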

Additional observations from a re-analysis of the deposited data

How the results depend on the processing

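Adamts4, Mmp8, Adamts1 and Timp1 kept direction and call under every other setting in which they were tested, and leaving out each rat left 5 members called. A minimum mean FPKM of 5 removed Mmp8 and Adamts4 and left 3 members called. With the replicate block, which pairs rats of the same number, 3980 genes were called, 3504 of them among the 3595 of the reported fit. The regulator and substrate genes called higher went from 12 to 16 under the block, and it changed no call of a member. Over all genes, leave-one-out fits called 1526 to 2567 genes higher (the lowest without sham 3) and 305 to 880 lower (305 without sham 2, 348 without sham 3). The lower count was 166 at a minimum of 5, 527 after TPM scaling, 1559 with quantile normalization, which called 1441 higher, and 1554 with centring on the sample median. Without mitochondrially encoded genes 791 were higher and 3010 lower, and with voom on such totals 837 and 4408. The other family genes called higher were 2 with no minimum, 1 at a minimum of 5, 1 without mitochondrial genes (also by voom), 2 after centring, 2 after quantile normalization and 2 to 3 in leave-one-out fits (2 without sham 2, sham 3 or I/R 1). Those called lower were 1 at a minimum of 5, 9 without mitochondrial genes (12 by voom), 4 after centring and 4 after quantile normalization. Of the regulators and substrates, 5 were higher and 3 lower without mitochondrial genes (the same 2 counts by voom), and 6 higher and 4 lower after quantile normalization. Adamts2 turned to -0.13 without mitochondrial genes and -0.15 by voom on such totals, and Col1a1 to -0.12 after quantile normalization. The cause of these changes was not tested, apart from the smaller number of genes at a higher minimum.

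At a pseudocount of 1 the log2 ratio difference was -1.53 for Mmp9 to Timp1, 0.42 for Adamts1 to Adamts4 (reported fit -0.89) and 0.18 for Adamts4 to Timp3. At 0.01 it was 1.22 for Mmp9 to Timp1, -0.0080 for Mmp8 to Mmp9 (0.94) and 0.30 for Mmp3 to Timp1 (-1.31). Quantile normalization gave -0.18 for Mmp2 to Mmp14, 0.62 for Mmp9 to Timp1, -0.46 for Mmp3 to Timp1 and 2.52 for Adamts4 to Timp3. Low fragment numbers limit Mmp3 and Mmp9 most.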
